A study of Mus musculus with 4 samples.

Results

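Dclk1 and 7 other genes that mark tuft cells were followed in cultured primary ductal cells of the mouse pancreas. The 8 genes are Dclk1, Pou2f3, Gfi1b, Trpm5, Sucnr1, Avil, Il25 and Chat, out of 22869 gene symbols in the deposited tables. All 7 deposited transcripts of Dclk1 are described, and for each other gene the transcript with the highest mean count, which gives 14 of 28644 transcripts. Dclk1 was chosen because of its difference between the groups in these same libraries, so its fold changes, intervals and p-values describe that choice and are no independent test. The others were added as known tuft cell genes.

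Primary ductal cells came from adult C57BL/6 mice that had not been induced in life. The group labelled knockout carried floxed Hhex alleles and Sox9CreER, written Sox9CreERT2 in the series' design text, a tamoxifen-inducible Cre driven by the promoter of the ductal factor gene Sox9 (n = 2). The control group, from littermates, carried the floxed Hhex alleles without Cre (n = 2). Cells of both groups received 500 nM 4-hydroxytamoxifen, which activates the Cre, for 4 days in culture, and no group carried Cre without the floxed alleles. An effect of the Cre therefore cannot be told apart from an effect of Hhex loss.

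Tuft cells are rare chemosensory cells of hollow organs that sense their surroundings through receptors and a taste-type signalling cascade. The transcription factor Pou2f3 is needed for them to form, the cation channel Trpm5 carries the signal, and Il25, acetylcholine and eicosanoids are among their outputs. In the mouse pancreas they are scarce in the healthy duct and appear in the epithelium during pancreatitis and metaplasia. Dclk1, a microtubule-binding protein kinase, is the antigen most often used to stain them, but neurons and other cells make it as well.

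The 4 libraries held between 25257778 and 39582625 counts. Krt19, a keratin of ductal cells named here as a check after its values were seen, stood at 319 and 556 RPKM in the libraries labelled knockout and 322 and 419 RPKM in the controls. The targeted gene was not lower: Hhex stood at 10.6 and 16.6 RPKM in the libraries labelled knockout and at 9.94 and 7.65 RPKM in the controls, and the deleted part is not stated in the labels. The group is therefore called the libraries labelled knockout. Knockout replicate 2 was the only library with Xist, the RNA of the inactive X, above 0.0691 RPKM, at 12.8 RPKM. The Y-linked gene Ddx3y stood at 34.5 and 0.0889 RPKM in knockout replicates 1 and 2. In control replicates 1 and 2 it stood at 16.5 and 26.0 RPKM. Both genes were likewise chosen after their values were seen. Knockout replicate 2 thus had a female pattern and the other libraries a male pattern. The part of sex in other differences of that library was not tested. Olfactory receptor genes, assumed here to be mostly silent in ductal cells, served as a measure of background. Not all were low. The highest stood at 21.7 and 10.8 RPKM in knockout replicates 1 and 2. In control replicates 1 and 2 the highest stood at 17.7 and 28.4 RPKM. The median of 1123 such symbols was 0.0224 and 0.0455 RPKM in knockout replicates 1 and 2, against 0.0558 and 0.0308 RPKM in control replicates 1 and 2. Their summed counts, not scaled for depth, gave another order, at 3433 and 3240 in knockout replicates 1 and 2 and 4645 and 2902 in control replicates 1 and 2.

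The 7 Dclk1 transcripts combine a pair of starts with a pair of ends. The GRCm38 annotation (GENCODE M21) places the gene on the plus strand of chromosome 3. NM_019978 (chr3:55242526-55539064) has 17 exons and encodes the microtubule-binding doublecortin domains followed by the kinase domain, as does NM_001195538. NM_001111053 (chr3:55242526-55471316) has the same upstream start but ends early, its last of 7 exons being 4744 bases long, so that it carries the doublecortin domains without the kinase. NM_001111052, NM_001111051 and NM_001195539 begin at an internal start, 219394 bases into the gene for NM_001111052, so that they carry the kinase without the doublecortin domains. NM_001195540 (chr3:55461728-55471318) combines the internal start with the early end in 3 exons.

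The bases before both starts are shown because rows with either start were higher in the libraries labelled knockout. Rows with different starts share exons and reads, so a higher row does not show which start was used more. Use of either start was not tested. They were read from RefSeq's table for GRCm38.p6, plus strand, and capitals mark the SOX core ACAAT or its reverse complement ATTGT. RefSeq's table places the upstream start at base 55242364. In the GRCm38 annotation that is the start of NM_001195538, whereas NM_019978 and NM_001111053 start at base 55242526. Of the 250 bases before base 55242364, the first 189 are printed (chr3:55242114-55242302), up to where the gene's RefSeq record begins. All 250 are printed for the internal start (chr3:55461478-55461727), that of NM_001195540.
Upstream start: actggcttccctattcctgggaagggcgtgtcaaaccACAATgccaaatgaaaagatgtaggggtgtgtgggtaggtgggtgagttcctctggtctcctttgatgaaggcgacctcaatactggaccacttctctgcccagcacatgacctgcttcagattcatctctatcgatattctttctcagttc
Internal start: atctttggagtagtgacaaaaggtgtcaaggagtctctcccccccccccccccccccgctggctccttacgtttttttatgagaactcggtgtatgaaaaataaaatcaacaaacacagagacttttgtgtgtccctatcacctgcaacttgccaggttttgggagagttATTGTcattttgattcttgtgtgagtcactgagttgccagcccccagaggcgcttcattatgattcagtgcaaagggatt
Both strands were searched for 3 motifs in the 250 bases before each listed start. The SOX core was present once in each Dclk1 window, and it is present in 27.7% of all 32851 such windows. The HHEX-type motif ATTAAA, present in 12.7% of all windows, and the POU octamer ATGCAAAT, present in 1.60%, were in neither. A match or its absence describes these letters only.

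Every Dclk1 transcript was higher in both libraries labelled knockout than in either control. The most abundant, NM_001111053, stood at 2.29 and 3.48 RPKM in the libraries labelled knockout and at 0.762 and 0.607 RPKM in the controls. The level in knockout replicate 2 was the highest of the 4, and both were well clear of the controls. As scaled CPM, this was 22.6 ± 7.37 (SD, n = 2) in the libraries labelled knockout and 5.63 in the controls (mean of n = 2, at 6.49 and 4.78), a 4.01-fold difference in edgeR with a 95% interval of 2.53 to 6.33.

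NM_019978 joins the doublecortin and kinase domains. It had 674 and 572 counts in the libraries labelled knockout and 159 and 120 counts in the controls. Its level was 1.82 and 1.77 RPKM in the libraries labelled knockout and 0.523 and 0.474 RPKM in the controls. Both groups were tight, and the fold difference was 3.42 with a 95% interval of 2.51 to 4.66. NM_001111052, the kinase without the doublecortin domains, stood at 1.62 and 1.35 RPKM in the libraries labelled knockout and at 0.449 and 0.442 RPKM in the controls, 3.17-fold apart. NM_001195540, with internal start and early end, stood at 2.10 and 3.21 RPKM in the libraries labelled knockout and at 0.704 and 0.588 RPKM in the controls, 3.91-fold apart. Over all 7 transcripts the log2 fold change ran from 1.66 to 2.00, the highest being that of NM_001111053.

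**Figure D1:**
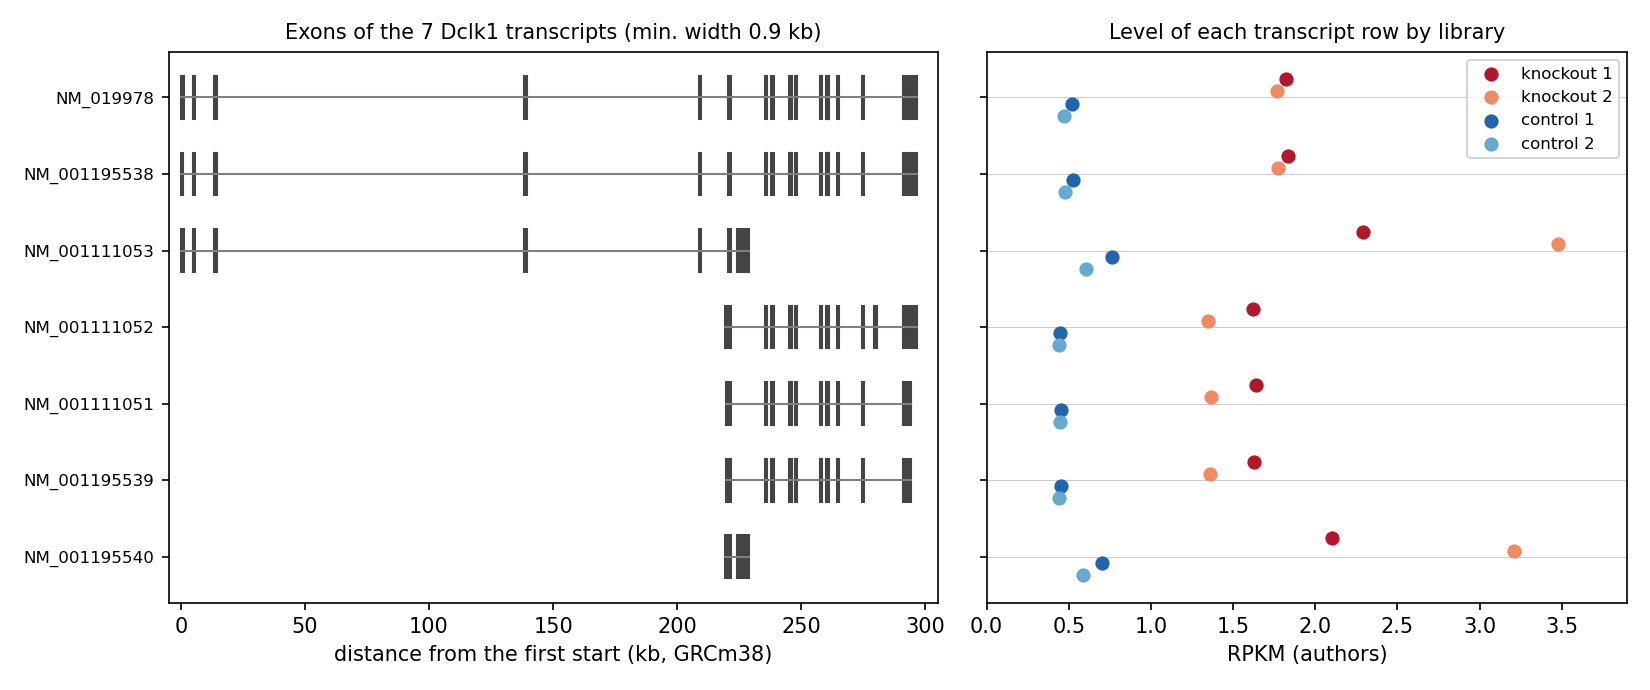
Left, exons of the 7 deposited Dclk1 transcripts in the GRCm38 annotation, as distance in kb from the first start (exons drawn at least 0.9 kb wide); right, the authors' RPKM of each transcript in the 2 libraries labelled knockout and the 2 controls, 1 point per library. All 7 transcripts lie between 1.35 and 3.48 RPKM in the libraries labelled knockout and between 0.442 and 0.762 RPKM in the controls.

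In the fit over all 20949 transcripts tested, 5 of the 7 Dclk1 transcripts passed an edgeR adjusted p of 0.05 upward and 0 downward, against a background of 0.129% called higher and 0.0477% called lower. Because the gene was chosen on this contrast, the count describes the choice only. The transcripts just inside the threshold were NM_001111051, NM_001111052 and NM_001195539, each with an edgeR adjusted p of 0.0450, and those just outside were NM_001111053 at 0.0653 and NM_001195540 at 0.0723. With 1 transcript per symbol, or without either control, no Dclk1 transcript passed. Groups that do not overlap upward, as in all 7, were found for 19.1% of transcripts tested.

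The 7 transcripts are not 7 measurements, since they share exons and reads. NM_001111051 and NM_001111052 had identical counts in every library, 536 and 390 in the libraries labelled knockout and 122 and 100 in the controls. Subtracting the internal-start row from the upstream-start row leaves mainly the reads of the 5 upstream exons (1186 bases in all). Reads of the internal first exon are taken off. The late-end rows also differ in an exon of 133 bases in NM_019978 and 85 bases in NM_001111052. NM_001111052 has a further exon of 74 bases. For the early end (NM_001111053 minus NM_001195540) the difference was 138 and 180 counts in the libraries labelled knockout and 37 and 20 counts in the controls. For the late end (NM_019978 minus NM_001111052) it was 138 and 182 counts in the libraries labelled knockout and 37 and 20 counts in the controls. The subtractions matched within 2 counts in all 4 libraries, as both leave mainly the reads of the same 5 upstream exons. They are therefore 1 measurement rather than 2. The difference was larger in both libraries labelled knockout than in either control. The upstream exons hold the doublecortin domains, and as scaled CPM the difference was 3.70 and 5.81 in the libraries labelled knockout and 1.35 and 0.811 in the controls.

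The balance between the ends set knockout replicate 2 apart. NM_001195540 (early end) over NM_001111052 (late end), both with the internal start, gave a count ratio of 0.955 and 1.75 in knockout replicates 1 and 2, and of 1.16 and 0.980 in control replicates 1 and 2. The excess of early-end reads in knockout replicate 2 came to 293 counts, against a deficit in knockout replicate 1, with 512 early-end and 536 late-end counts. The last early exon lies inside an intron of the longer transcripts, so reads from unspliced RNA of those would be counted there, and their part in the ratio was not tested.

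**Figure D2:**
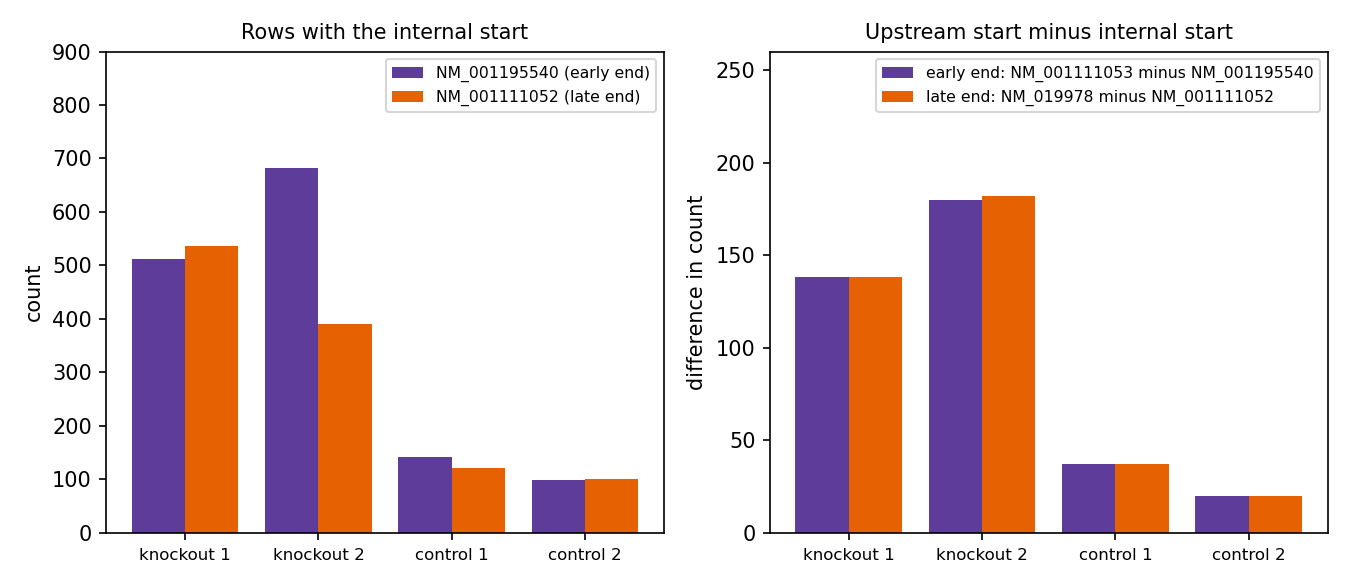
Left, counts of the Dclk1 rows with the internal start and the early end (NM_001195540) or the late end (NM_001111052) in each library; right, the count of the upstream-start row minus that of the internal-start row, for each end. The subtraction gives 138 to 182 counts in the libraries labelled knockout and 20 to 37 counts in the controls. Both ends leave mainly the reads of the same 5 upstream exons, so their match adds no separate measurement. The early-end row exceeds the late-end row most in knockout replicate 2.

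In absolute terms Dclk1 remained a gene of middling level. In knockout replicates 1 and 2, 41.1% and 35.4% of all gene symbols had an RPKM at or above that of NM_001111053, and in control replicates 1 and 2, 50.3% and 51.7% did. It stood above nearly all olfactory receptor symbols, of which 0.0890% reached its level in each library. In RNA from a whole culture, more Dclk1 per cell and more cells with Dclk1 cannot be told apart.

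Of the 2 transcription factor genes among the members, neither showed a separation of the groups. Pou2f3 (NM_011139), the factor that specifies the lineage, had 4 and 12 counts in the libraries labelled knockout and 11 and 4 counts in the controls. Those counts amount to 0.0336 and 0.116 RPKM in the libraries labelled knockout and 0.113 and 0.0491 RPKM in the controls. The groups overlapped completely, and between 9.88% and 35.4% of olfactory receptor symbols in a library lay at or above Pou2f3. Its log2 fold change was -0.22, with 95% bounds at -2.73 and 2.29 (edgeR adjusted p = 0.986), so at this depth a change of several-fold either way was not detectable.

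Gfi1b (NM_001160406), a zinc-finger repressor of tuft and blood cells, was too low to be tested. It had 4 and 6 counts in the libraries labelled knockout and 13 and 1 counts in the controls, and the groups overlapped. Its highest level, 0.184 RPKM in control replicate 1, was reached by 7.75% of olfactory receptor symbols there.

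Trpm5 (NM_020277), the channel at the end of the taste-type cascade, was low and even. It stood at 0.194 and 0.205 RPKM in the libraries labelled knockout and at 0.253 and 0.177 RPKM in the controls. The groups overlapped, with a log2 fold change of -0.19 and 95% bounds at -1.38 and 0.99 (edgeR adjusted p = 0.977). Between 0.534% and 2.14% of olfactory receptor symbols reached its level, so that Trpm5 lay above most of that background in all 4 libraries.

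Sucnr1 (NM_032400), the succinate receptor through which intestinal tuft cells sense microbes, was at background. It had 2 and 3 counts in the libraries labelled knockout and 3 and 1 counts in the controls and was not tested. Between 36.2% and 65.4% of olfactory receptor symbols lay at or above it.

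Avil (NM_009635), an actin-binding relative of villin found in tuft cells and sensory neurons, stood at 0.168 and 0.360 RPKM in the libraries labelled knockout and at 0.383 and 0.184 RPKM in the controls. The highest and the lowest values were split between the groups, with a log2 fold change of -0.19 and 95% bounds at -1.73 and 1.36 (edgeR adjusted p = 0.982). No more than 1.34% of olfactory receptor symbols reached it in any library.

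Il25 and Chat, genes of tuft cell outputs, were also low. Il25 (NM_080729), the cytokine that starts type 2 immunity in the gut, had 8 and 10 counts in the libraries labelled knockout and 18 and 1 counts in the controls, and was not tested. The controls enclosed the libraries labelled knockout. Chat (NM_009891), which makes acetylcholine, had 7 and 11 counts in the libraries labelled knockout and 27 and 15 counts in the controls. It was the only one of the 7 genes other than Dclk1 whose groups did not overlap, where 17.0% of all transcripts tested did not overlap downward. It was lower in the libraries labelled knockout, at 0.0528 and 0.0950 RPKM against 0.248 and 0.166 RPKM in the controls. Its log2 fold change of -1.55, with a 95% interval of -3.39 to 0.28, did not pass the test (edgeR adjusted p = 0.756).

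**Figure D3:**
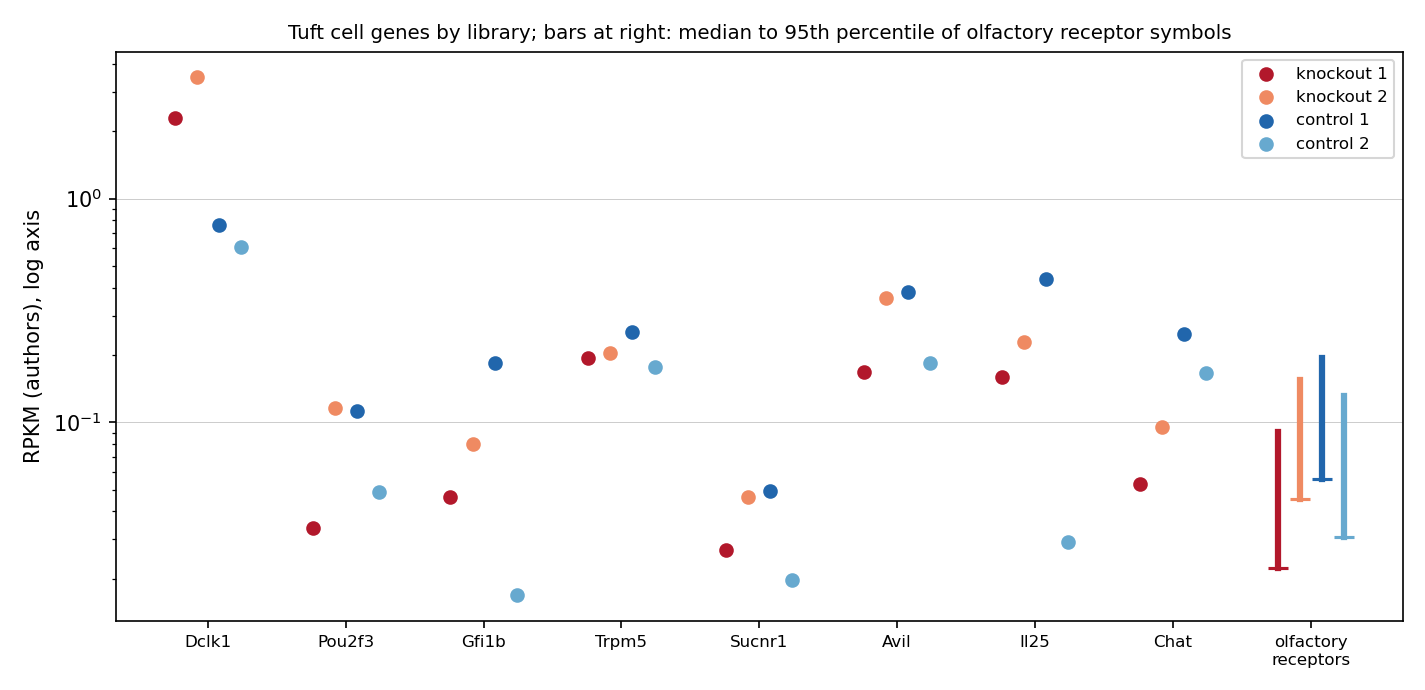
The authors' RPKM (log axis) of Dclk1 (NM_001111053) and the 7 other tuft cell genes, 1 point per library, with bars at the right from the median to the 95th percentile of 1123 olfactory receptor symbols in the same library. Dclk1 lies at 2.29 and 3.48 RPKM in the libraries labelled knockout and at 0.762 and 0.607 RPKM in the controls, whereas no other gene exceeds 0.437 RPKM in any library.

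Of these 7 genes, 4 passed the filter on low counts and 3 did not, and edgeR called 0 of the 4, against a background of 0.177% of transcripts called in either direction. At an unadjusted p under 0.05 there were 0 of the 4, and DESeq2 called 0, with no adjusted p given for Pou2f3 and Chat. All 4 log2 fold changes were negative, but 3 of them turned positive when 1 library was left out. Without control replicate 1, Pou2f3 stood at 0.57, Avil at 0.51 and Trpm5 at 0.16, and without knockout replicate 1, Pou2f3 stood at 0.41 and Avil at 0.26. In RPKM, all 7 genes were lower in knockout replicate 1 than in replicate 2, and lower in control replicate 2 than in control replicate 1, which is also the order of the median olfactory receptor symbol within each group. The part of that background in their values was not tested.

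A wider list of 55 genes of tuft cells, Dclk1 among them, was examined by role. Without Dclk1 and without Sh2d6, not analysed here, 53 symbols were present and 37 were tested. EdgeR called 0 of the 37, and at an unadjusted p under 0.05 there were 2 higher and 2 lower, whereas over all 15892 symbols tested 4.63% were higher and 2.83% lower. DESeq2 called 1, Ptgs1. The median log2 fold change was -0.19, beside -0.01 over all symbols tested, and 25 of 37 were negative, beside 51.6% of all symbols. For the 7 olfactory receptor symbols tested the median was -0.36, and 5 were negative. The part of background in the values of the tuft list was not tested. Among the 37 genes of the list, 5 did not overlap upward and 9 downward, where all symbols tested gave 18.8% and 17.4%.

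Among the transcription factors, Sox4, a progenitor factor of many epithelia, was the most abundant at 26.8 and 36.5 RPKM in the libraries labelled knockout and 46.3 and 49.7 RPKM in the controls. It did not overlap and had a log2 fold change of -0.66 (edgeR adjusted p = 0.448). Runx1, best known from blood formation, stood at 2.72 and 2.02 RPKM in the libraries labelled knockout and 1.30 and 1.58 RPKM in the controls, with a log2 fold change of 0.65 (edgeR adjusted p = 0.411). Neither passed the test, and Spib, a factor of lymphoid and tuft cells, lay between 0.145 and 0.436 RPKM with overlapping groups.

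Within the taste-type cascade, the inositol trisphosphate receptor gene Itpr3 stood at 11.3 and 10.9 RPKM in the libraries labelled knockout and 13.2 and 15.7 RPKM in the controls, with a log2 fold change of -0.45 (edgeR adjusted p = 0.507). The sweet and umami receptor gene Tas1r3 was at 1.48 and 1.51 RPKM in the libraries labelled knockout and 1.44 and 1.91 RPKM in the controls. Gng13, the gamma subunit that taste receptors signal through, was at 1.28 and 1.17 RPKM in the libraries labelled knockout and 0.935 and 0.824 RPKM in the controls, and its short transcript gave only 11 to 25 counts. None of the 7 cascade genes tested passed.

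Receptors for the type 2 cytokines were present in both groups. Il4ra stood at 20.1 and 29.8 RPKM in the libraries labelled knockout and 19.7 and 21.5 RPKM in the controls, and Il13ra1, its partner chain, at 16.5 and 13.0 RPKM in the libraries labelled knockout and 11.3 and 14.6 RPKM in the controls. Il17rb, the receptor of Il25, was much lower, between 0.299 and 0.361 RPKM. In all 3 the groups overlapped.

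Of the eicosanoid genes, Ptgs1 had the lowest adjusted p of the list without Dclk1. Ptgs1 encodes cyclooxygenase 1, which starts prostaglandin synthesis and marks tuft cells in many organs. It stood at 6.73 and 8.40 RPKM in the libraries labelled knockout and 3.94 and 4.17 RPKM in the controls, with no overlap. The log2 fold change was 0.84 ± 0.18 (SE) and did not pass (edgeR adjusted p = 0.235). Pla2g4a, the phospholipase that frees arachidonic acid, was level at 18.0 and 17.3 RPKM in the libraries labelled knockout and 15.7 and 18.9 RPKM in the controls. Ltc4s, the leukotriene synthase, was at 0.325 and 1.69 RPKM in the libraries labelled knockout and 0.570 and 0.897 RPKM in the controls, so that the libraries labelled knockout enclosed the controls.

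Among cytoskeletal genes, Krt18, a keratin of all simple epithelia, was among the most abundant transcripts at 5229 and 3351 RPKM in the libraries labelled knockout and 3304 and 4422 RPKM in the controls. Vil1, the brush border protein villin, was at 6.42 and 2.31 RPKM in the libraries labelled knockout and 6.33 and 8.90 RPKM in the controls, with a log2 fold change of -0.88 (edgeR adjusted p = 0.719), and its groups overlapped in RPKM but not in CPM. Among signalling and surface genes, Cd24a was at 188 and 223 RPKM in the libraries labelled knockout and 145 and 164 RPKM in the controls (log2 fold change 0.35, edgeR adjusted p = 0.771). Plcg2, a phospholipase of immune and tuft cells, and the phosphatase gene Ptpn6 lay between 4.51 and 6.21 RPKM in every library.

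**Figure D4:**
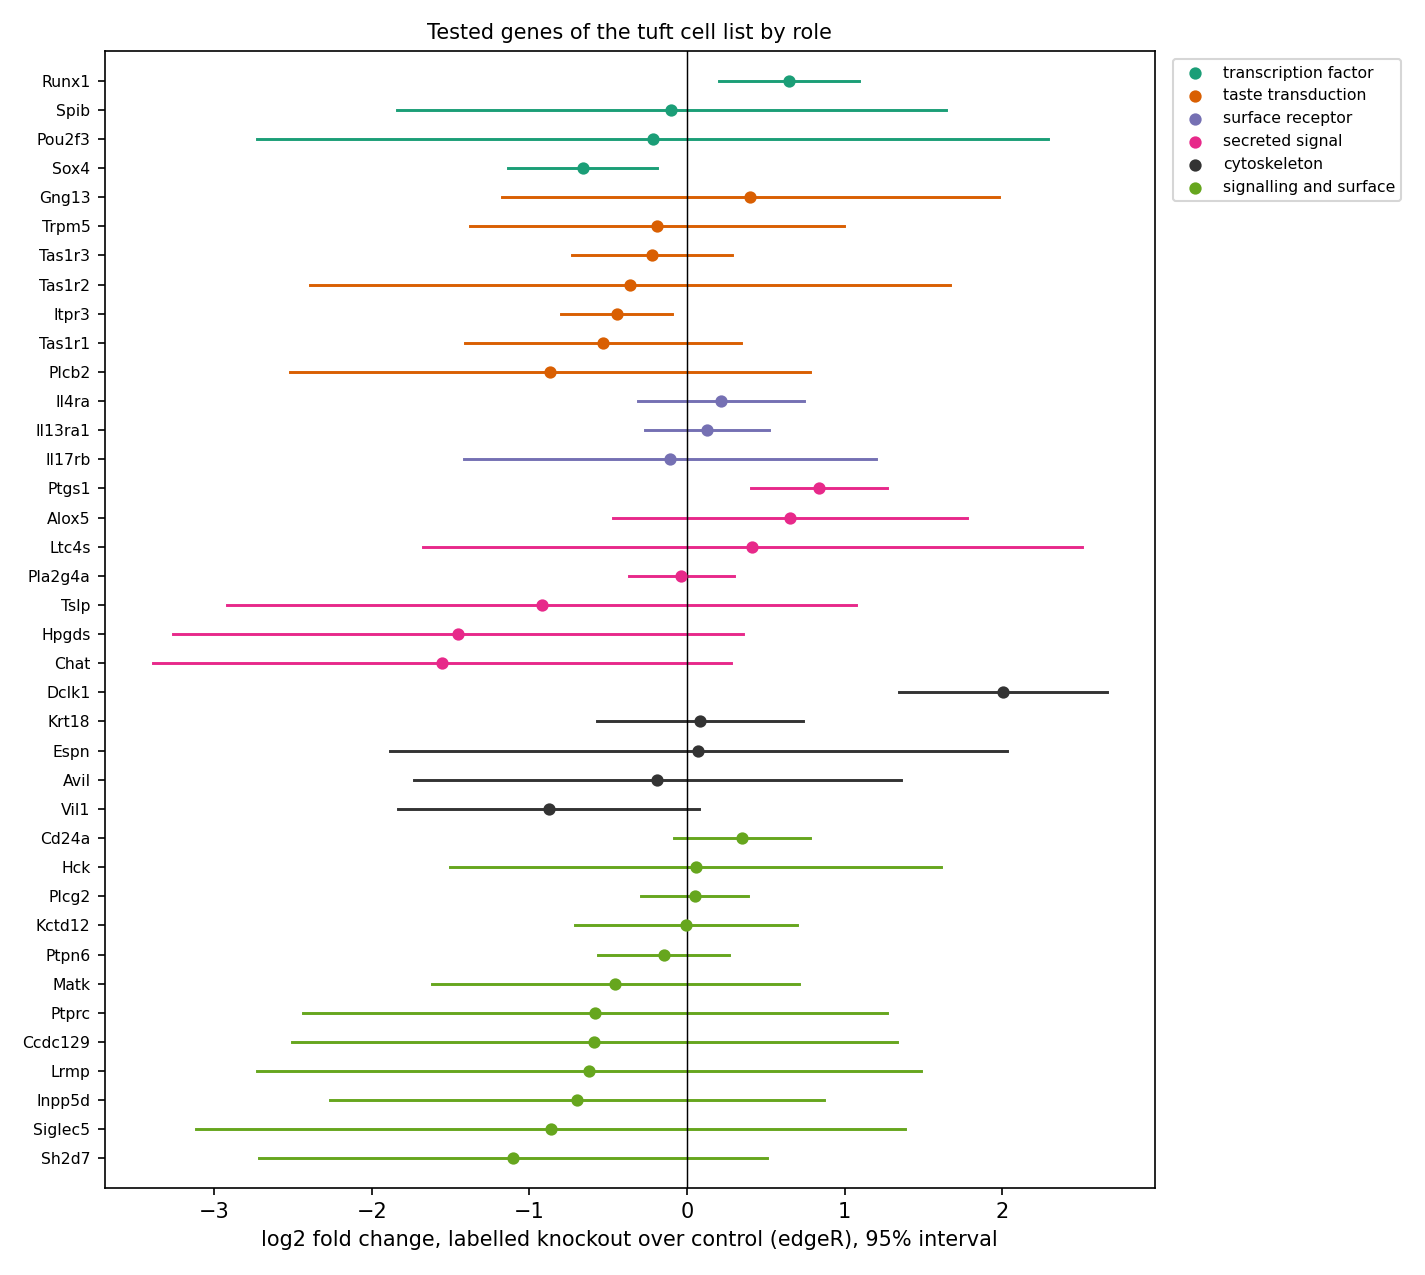
Log2 fold change (libraries labelled knockout over controls) with its 95% interval in edgeR for the 38 tested genes of the tuft cell list, coloured by role and ordered within each role. Dclk1, drawn as NM_001111053 and chosen for its difference, lies at 2.00, and the next highest is Ptgs1 at 0.84.

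Of the other doublecortin family genes, Dclk3 was the nearest to Dclk1 in its difference. Dclk3, a kinase related to Dclk1, had 416 and 450 counts in the libraries labelled knockout and 197 and 92 counts in the controls. Its level was 2.52 and 3.12 RPKM in the libraries labelled knockout and 1.45 and 0.816 RPKM in the controls, with no overlap and a log2 fold change of 1.23 ± 0.32 (SE) that did not pass (edgeR adjusted p = 0.338). Dclk2, the closest relative of Dclk1, lay between 0.151 and 0.327 RPKM with overlapping groups. Dcx, the doublecortin of migrating neurons, lay at no more than 0.0514 RPKM in any library and Dcdc2a, a doublecortin-domain gene of cilia, at no more than 0.277 RPKM, both with overlapping groups.

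Marker lists of tuft and other cell types were summed, though a sum can rest largely on 1 gene. The 9 defining tuft markers with counts summed to 3.62 and 5.39 CPM in the libraries labelled knockout and 7.32 and 3.61 CPM in the controls, and none was at 0 in any library. Neural and Schwann markers, 12 genes, summed to 41.1 and 15.4 CPM in the libraries labelled knockout and 26.9 and 13.8 CPM in the controls. The groups overlapped on both lists. Fibroblast and stellate markers, 11 genes, summed to 11.4 and 12.8 CPM in the libraries labelled knockout and 27.4 and 23.7 CPM in the controls, with both controls above both libraries labelled knockout. Endocrine markers, 10 genes, reached at most 4.30 CPM in sum, and acinar markers, 10 genes, at most 4.88 CPM. Haematopoietic markers, 12 genes, lay between 13.7 and 22.1 CPM with overlap. Of these, Cd68 alone gave 16.2 and 3.94 CPM in knockout replicates 1 and 2. In control replicates 1 and 2 it gave 7.36 and 10.8 CPM. At 0 in at least 1 library were Gcg, Lum, Cpa3, Ptf1a, Amy2a5 and the ductal gene Onecut1, and Amy2a5 was at 0 in all 4. The genes named here from these lists were chosen after their values were seen. Sox10, a defining Schwann cell factor, had 12 and 16 counts in the libraries labelled knockout and 18 and 5 counts in the controls. S100b, a glial calcium-binding gene, stood at 0.945 and 0.731 RPKM in the libraries labelled knockout and 0.186 and 0.299 RPKM in the controls (edgeR adjusted p = 0.448). Sparc, a matrix gene of fibroblasts, stood at 1.56 and 1.14 RPKM in the libraries labelled knockout and 3.69 and 4.34 RPKM in the controls (edgeR adjusted p = 0.0609). Over the 10 neural and Schwann genes tested, 6 log2 fold changes were positive and 4 negative, with 2 genes not overlapping upward and 1 downward, so S100b does not stand for its list. Over the 9 fibroblast and stellate genes tested, all 9 were negative and 3 did not overlap downward. Among them Col1a2, Col3a1, Pdgfra, Pdgfrb and Des were low, between 0.0453 and 0.288 RPKM. Of the 7 olfactory receptor symbols tested, 5 were negative as well. The part of background in the fibroblast and stellate values was not tested. All symbols tested gave 18.8% without overlap upward, 17.4% without overlap downward and 51.6% negative. The part of these other cell types in the Dclk1 level was not tested. Ductal markers, 12 genes, summed to 7045 and 6824 CPM in the libraries labelled knockout and 5987 and 6815 CPM in the controls.

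Sox9, a ductal factor whose promoter drives the Cre and which tuft cells also express, stood at 9.99 and 8.04 RPKM in the libraries labelled knockout and 3.07 and 3.94 RPKM in the controls. Its groups did not overlap, and its log2 fold change of 1.30 ± 0.17 (SE) lay just outside the threshold (edgeR adjusted p = 0.0521).

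Other genes followed the same course over the 4 libraries as Dclk1. Likeness was measured as the root mean square difference between centred log2 CPM profiles, with NM_001111053 standing for Dclk1, over 15892 symbols and 4 libraries. The 6 nearest were Tram1l1, Cd200, Upk1b, 4930503E14Rik, Klra13-ps and Klra23, with differences of 0.122 to 0.253. Tram1l1, a relative of the translocon component Tram1, was at 0.658 and 0.928 RPKM in the libraries labelled knockout and 0.197 and 0.181 RPKM in the controls. Cd200, whose product binds an inhibitory receptor on myeloid cells, was at 3.07 and 3.31 RPKM in the libraries labelled knockout and 0.759 and 0.581 RPKM in the controls. Upk1b, a tetraspanin of urothelium, was at 0.959 and 1.54 RPKM in the libraries labelled knockout and 0.190 and 0.210 RPKM in the controls. Klra13-ps and Klra23 belong to the Ly49 multigene family and had identical counts, so they are uncertain as separate genes. None of the 6 was on the tuft cell list, and nearness over 4 libraries was fixed largely by the difference between the groups.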

How the data were processed

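RNA was sequenced from 4 cultures of primary pancreatic ductal cells, with Illumina TruSeq v2 libraries, per the labels' protocols. The authors deposited raw counts and RPKM values by RefSeq transcript. The build mm9 and the tool edgeR are named in the submitters' processing notes. The aligner, the counter and its treatment of strand are not given in the sources used here. In the deposited tables the counts are whole and RPKM divides them by length and a sum per library. That sum stood at 1.22 and 1.06 in knockout replicates 1 and 2, relative to control replicate 1, and at 0.832 in control replicate 2, while counts in transcripts stood at 1.55, 1.21 and 0.990. The 2 scales therefore differ between libraries.

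Transcripts were kept with filterByExpr (minimum count 10, total 15), scaled with TMM and tested in edgeR 4.0.16 (R 4.3.3) by quasi-likelihood (knockout minus control), adjusting p after Benjamini and Hochberg over all 20949 transcripts, threshold 0.05. The other 7695 were not tested. CPM refers to TMM-scaled libraries. The script was tested on simulated data. The labels' genotype set the groups, and nothing pairs libraries. The series' design text gives 2 mice per group but not that each library is 1 mouse, so p-values measure the spread between these libraries. The members and gene lists were chosen with earlier results of these data known. Named genes were the members, in each role of the tuft list the 3 with the highest mean RPKM and any called, the doublecortin family, Hhex and Sox9, and the 6 nearest to Dclk1 (log2 of CPM + 0.1). Exons came from GENCODE M21 on GRCm38, which names all 7 Dclk1 records. It gives NM_001111051 and NM_001195539 a shorter last exon than the authors' RPKM implies. Promoter windows from RefSeq were found for 6 of the 8 genes. DESeq2 1.42.0 and limma 3.58.1 served as alternatives.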

Additional observations from a re-analysis of the deposited data

How the results depend on the processing

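The number of transcripts called depended on the processing, and with it the Dclk1 calls. EdgeR called 37 transcripts, but 5 with library totals, 5 with upper-quartile factors, 4 with a minimum count of 30, 79 without the filter, 270 with the exact test, 84 with the robust fit, 5 with counts summed per symbol and 2 with 1 transcript per symbol. DESeq2 called 303, and limma-trend 221 on log2(RPKM + 0.1) and 190 on log2(RPKM + 1). With a library left out the count ran from 13, without control replicate 1, to 1735, without knockout replicate 2. The Dclk1 transcripts called, 5 of 7, became 0 with library totals, with upper-quartile factors and with a minimum count of 30, and 2 with RLE factors, and ran from 0 without either control to 7 without either library labelled knockout. The log2 fold change of NM_001111053, a description since Dclk1 was chosen on this contrast, was positive under all 12 alternatives that kept every library. It passed the threshold without the filter (1.99), with the exact test (2.00), the robust fit (2.00), DESeq2 (2.01), limma-trend (1.90 and, with the larger pseudocount, 1.19) and summed counts (1.81). It ran from 1.60 to 2.27 with a library left out, where 1 library is assumed to vary like the other group. Of the tuft list without Dclk1, DESeq2 called 1 gene, and 0 to 3 were called with a library left out. With a library left out, the log2 fold change ran from -0.91 to 0.51 for Avil, from -1.39 to 0.57 for Pou2f3 and from -0.43 to 0.16 for Trpm5. Avil turned positive without knockout replicate 1 (0.26) and without control replicate 1 (0.51), Pou2f3 likewise (0.41 and 0.57), and Trpm5 without control replicate 1 (0.16). The cause was not tested. No paired analysis was possible because the labels give the groups no shared replicate numbers. Counts of 1 to 45 limit what can be said of Pou2f3, Gfi1b, Sucnr1, Avil, Il25, Chat and Trpm5.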
